A study of Mus musculus with 81 samples.

Results

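The domains of macroH2A1 (mH2A1) and of macroH2A2 (mH2A2) were compared in area CA1 of the hippocampus of the same 3 untrained mice. The 6 domain lists, 1 for each variant in each mouse, are 6 of the 81 samples of the series, and they were chosen by their labels as home cage controls of the cohort collected 30 min after training. All 3 animals were male C57BL/6J mice, 9 to 12 weeks old, kept in the home cage with no fear conditioning, and the labels name no virus or transgene for them. In each mouse 1 portion of the digested chromatin went to an antibody against mH2A1 and 1 to an antibody against mH2A2. Variant and antibody therefore cannot be told apart. By the study's methods, more antibody was used for mH2A2 than for mH2A1. The mH2A1 lists held 83013, 95952 and 63198 domains in mice 1, 2 and 3, and the mH2A2 lists held 58223, 61938 and 60588. The series as a whole asks how both variants take part in gene expression and memory, and also holds trained mice, knockdowns and RNA. Values from 2 mice trained 30 min earlier are set beside these, and are added to the comparison only where this is said.

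MacroH2A proteins are histones that can take the place of H2A in the nucleosome, and each carries a large macrodomain that projects from it. H2afy encodes mH2A1 and H2afy2 encodes mH2A2. In other tissues they lie over broad stretches of chromatin, often over silent genes, and mH2A1 is best known for its enrichment on the inactive X chromosome of female cells. Male cells have a single X chromosome, which is active.

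A domain is a stretch in which the caller, epic2, found more ChIP reads than input reads. Positions were counted in steps of 200 bp, and the covered share of a region is the percentage of its bases, gaps left out, that lie in domains. Area CA1 is a mixed tissue, so that a domain present in some cells and a weaker one present in all cells cannot be told apart. In RNA from 3 other untrained mice all markers of CA1 pyramidal neurons, inhibitory neurons, astrocytes, oligodendrocytes, microglia and endothelium were above 1 CPM (the count scaled to a common library size). Their summed levels ranged from 4182 to 5727 CPM for CA1 pyramidal neurons and from 143 to 159 CPM for endothelium, while 3 of 10 liver genes were at 0 and 1, Ttr, a transthyretin also made by the choroid plexus, accounted for most of that list.

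Both variants had domains over the same and over different gene starts, and 4 of these starts show the contrast. The 250 bases before each start are printed 5′ to 3′ from RefSeq on GRCm38.p6, with the CpG dinucleotides in capitals, because the promoters held by only one variant differed in CpG content. The stretches before Cpa1, a carboxypeptidase of the pancreas (chr6:30638968-30639217, plus strand), and Krtap3-1, a keratin-associated protein of hair (chr11:99566631-99566880, minus strand), lay in mH2A1 domains only. The stretch before Fam131b, a gene expressed at 123 CPM in the CA1 RNA (chr6:42324641-42324890, minus strand), lay in mH2A2 domains only. The stretch before Hoxa5, a homeobox transcription factor of the body axis (chr6:52204588-52204837, minus strand), lay in domains of both.
Cpa1: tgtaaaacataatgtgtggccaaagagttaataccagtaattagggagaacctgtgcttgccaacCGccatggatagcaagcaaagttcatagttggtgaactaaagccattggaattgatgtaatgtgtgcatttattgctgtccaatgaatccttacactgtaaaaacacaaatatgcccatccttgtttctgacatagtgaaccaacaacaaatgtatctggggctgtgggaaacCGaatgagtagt
Krtap3-1: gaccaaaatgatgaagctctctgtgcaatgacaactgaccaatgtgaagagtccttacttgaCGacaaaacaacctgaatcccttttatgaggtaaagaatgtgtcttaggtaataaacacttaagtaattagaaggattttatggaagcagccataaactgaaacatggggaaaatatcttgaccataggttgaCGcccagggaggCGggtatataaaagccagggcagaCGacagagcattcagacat
Fam131b: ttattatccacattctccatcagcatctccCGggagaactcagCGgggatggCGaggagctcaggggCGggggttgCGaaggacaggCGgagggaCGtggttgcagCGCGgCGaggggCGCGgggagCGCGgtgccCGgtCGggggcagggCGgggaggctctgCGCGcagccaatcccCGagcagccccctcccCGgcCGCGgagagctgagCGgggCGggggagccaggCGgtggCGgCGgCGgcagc
Hoxa5: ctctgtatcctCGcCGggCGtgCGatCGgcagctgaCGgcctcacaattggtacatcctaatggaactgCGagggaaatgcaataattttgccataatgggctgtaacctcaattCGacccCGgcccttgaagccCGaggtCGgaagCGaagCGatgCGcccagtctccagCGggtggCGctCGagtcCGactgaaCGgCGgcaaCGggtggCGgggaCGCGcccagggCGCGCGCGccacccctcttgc
The Cpa1 stretch holds 2 CpGs and the Krtap3-1 stretch 4, against 29 in Fam131b and 28 in Hoxa5. The printed Cpa1 stretch was covered over 100% of its length by mH2A1 in all 3 mice, and over 0% by mH2A2. For Krtap3-1 the share was 100, 0 and 100% for mH2A1, and 0% for mH2A2 in each mouse. For Fam131b it was 0% for mH2A1, and 50, 100 and 100% for mH2A2, although of the whole 2 kb before its start mH2A2 covered only 10, 30 and 20%. For Hoxa5 it was 66.7, 100 and 100% for mH2A1, and 100% for mH2A2 in each mouse. These 4 were picked after their coverage was seen, and CpGs are no rarity, since 92.9% of 16539 promoters with a RefSeq sequence hold at least 1 in the same window.

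Counted over all 21938 protein-coding genes, few promoters belonged to 1 variant alone. A promoter, here the 2 kb before the gene start, was at least 50% covered by mH2A1 in all 3 mice and untouched by mH2A2 in 60 genes, and the reverse held in 93 genes. Fam131b is not among these 93. Both variants covered at least 50% in all 6 lists in 1233 genes, and neither touched the promoter in any mouse in 9648. The median number of CpGs in the 250 bases was 5.5 for the mH2A1-only promoters, 12.0 for the mH2A2-only promoters, 5.0 for the shared ones, 12.0 for those that neither touched and 10.0 over all promoters. Hoxa5 is therefore far above the median of its own group. The median RNA level of the genes was 1.18 CPM for the mH2A1-only promoters, 16.0 CPM for the mH2A2-only promoters, 0.10 CPM for the shared ones and 7.88 CPM over all genes.

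More mH2A1 than mH2A2 domains were listed in every mouse, and the mH2A1 domains were stronger on the scaled ratio. The difference in number was 24790 in mouse 1, 34014 in mouse 2 and 2610 in mouse 3, a mean of 20471 ± 16141 (SD, n = 3). The covered length was 368.9, 416.0 and 408.6 Mb for mH2A1, and 326.9, 406.8 and 365.6 Mb for mH2A2, which is 13.9, 15.7 and 15.4% of the genome for mH2A1 and 12.3, 15.4 and 13.8% for mH2A2. The covered shares of the variants overlapped across mice, although mH2A1 was higher within each mouse, by 1.19 ± 0.726 percentage points (SD, n = 3). The file's log2 ratio of ChIP over input after scaling had a median of 0.46, 0.50 and 0.40 for mH2A1, and of 0.35, 0.35 and 0.33 for mH2A2. Every mH2A1 list was above every mH2A2 list, by a mean of 0.11 ± 0.04 (SD, n = 3). These medians amount to a 1.37-, 1.42- and 1.32-fold ratio for mH2A1 and a 1.28-, 1.27- and 1.26-fold ratio for mH2A2, so that the enrichment inside a typical domain was small for both.

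The sign of that last difference depended on the scaling by depth. The raw quotient of ChIPCount over InputCount had a median of 1.48, 1.34 and 1.45 for mH2A1, and of 2.09, 1.73 and 1.71 for mH2A2, the opposite order. The scaling factor held in the lists places the mH2A2 ChIP libraries at 1.51, 1.44 and 1.24 times the depth of the mH2A1 ChIP libraries of mice 1, 2 and 3. Depth thus moved with the variant in every mouse, as did the amount of antibody. The part of either in the number and strength of domains was not tested. In a trained mouse in which both ChIP libraries had nearly the same depth, a ratio of 1.00, there were 63839 mH2A1 and 51899 mH2A2 domains. The median log2 ratio of that mouse was 0.43 for mH2A1 and 0.47 for mH2A2, the opposite order to the 3 untrained mice.

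The 2 variants could be set side by side with no difference in the input at stretches whose ends were identical in both lists of a mouse. There were 1403, 1139 and 872 such stretches in mice 1, 2 and 3, and all of them carried the same InputCount in both lists. Their median log2 ratio after scaling by depth was 0.57, 0.57 and 0.51 for mH2A1, and 0.49, 0.47 and 0.40 for mH2A2. Before scaling the order was the opposite, with a median ChIPCount of 144, 153 and 196 for mH2A1, and of 209, 202 and 228 for mH2A2. The scaled mH2A1 value was the higher one at 61.2, 69.1 and 73.6% of these stretches. It was the higher one at 73.8% in 1 trained mouse and at 36.8% in the other, the one with equal depth, so that the order at identical stretches did not hold in all 5 mice. Stretches with the same ends were called in both lists by construction, so they describe shared sites and not the lists as a whole.

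Domain lengths did not separate the variants, because mouse 3 went the other way. The median length was 3200, 3000 and 4600 bp for mH2A1, and 4000, 4600 and 4200 bp for mH2A2. Domains under 2 kb made up 18.1, 21.7 and 4.66% of the mH2A1 lists, and 8.63, 5.19 and 6.71% of the mH2A2 lists. The mH2A1 lists of mice 1 and 2 were therefore rich in short domains, while that of mouse 3 held fewer than any mH2A2 list. Domains over 10 kb made up 6.86, 6.71 and 14.2% for mH2A1 and 11.0, 15.3 and 13.1% for mH2A2.

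On the scaled ratio mH2A2 was the lower one in long domains, and on the raw quotient it was the higher one. In domains of 10 to 50 kb the median log2 ratio was 0.38, 0.50 and 0.37 for mH2A1, and 0.22, 0.29 and 0.25 for mH2A2. In domains over 50 kb it was 0.48, 0.66 and 0.49 for mH2A1, and 0.20, 0.32 and 0.28 for mH2A2. In domains under 2 kb the variants were closer, with 0.62, 0.64 and 0.61 for mH2A1, and 0.58, 0.60 and 0.53 for mH2A2. Before scaling, the median log2 quotient over 50 kb was 0.60, 0.58 and 0.63 for mH2A1, and 0.91, 0.77 and 0.72 for mH2A2. Under 2 kb it was 0.73, 0.56 and 0.75 for mH2A1, and 1.29, 1.04 and 0.98 for mH2A2. The order of the variants in every length class shown thus depended on the scaling. The number of domains over 50 kb was 54, 85 and 162 for mH2A1 and 64, 135 and 88 for mH2A2.

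**Figure D1:**
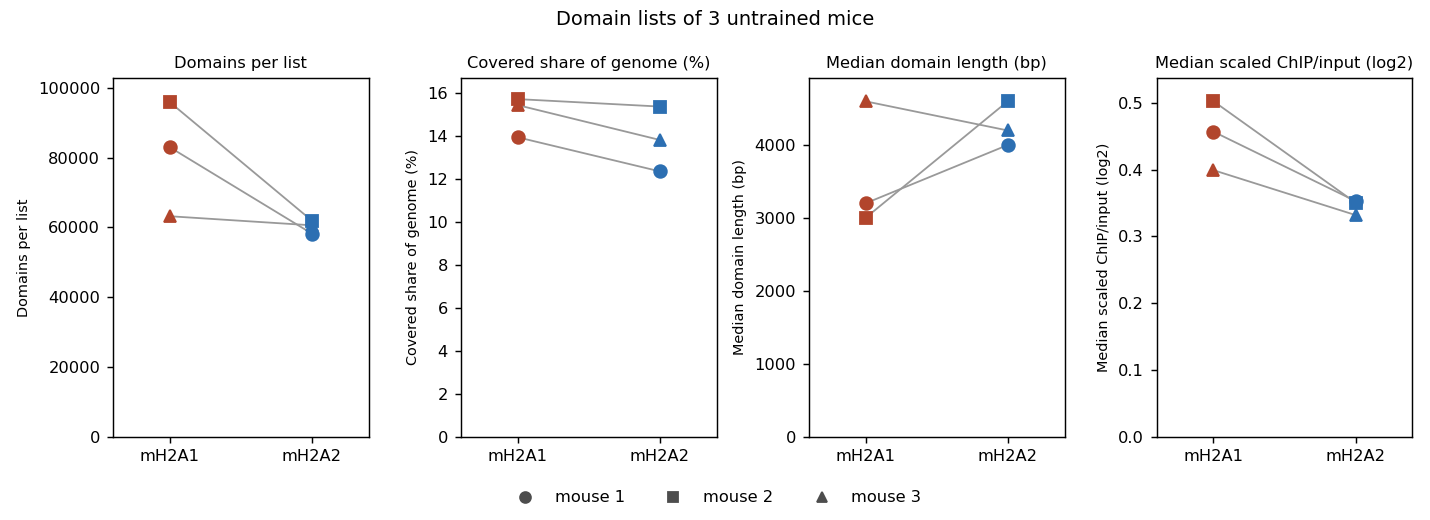
Each panel plots 1 property of the domain lists by mouse, with mH2A1 left of mH2A2 and a line joining the lists of the same mouse. The number of domains and the median log2 ratio were higher for mH2A1 in all 3 mice, whereas the median length was lower for mH2A1 in mice 1 and 2 (3200 and 3000 bp against 4000 and 4600 bp) and higher in mouse 3 (4600 against 4200 bp).

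The longest domains lay partly outside genes. Those of mH2A1 in mice 2 and 3, of 136.0 and 173.2 kb, overlapped each other on chromosome 8 and held no protein-coding gene. In mouse 1 the longest mH2A1 domain, 153.8 kb with a log2 ratio of 0.58, spanned Bmp7, a secreted growth factor of the BMP family. The longest mH2A2 domain of that mouse, 104.4 kb with 0.56, covered the Ugt1a cluster, whose genes encode liver enzymes that conjugate bilirubin and drugs. A mH2A1 domain of 105.4 kb with 0.62 lay over the same cluster in the same mouse, and input reads per kb were 4.46 times the median of the list in the mH2A1 domain and 4.69 times in the mH2A2 domain. The other longest domains had at most 1.35 times the median, and the part of the input in the Ugt1a domains was not tested. Other mH2A1 domains of over 100 kb covered Prdm16, a transcription factor of brown fat, in mouse 2, and Igsf21, an adhesion protein of synapses, in mouse 3. A mH2A2 domain of 116.8 kb covered Pax7, a regulator of muscle stem cells, in mouse 2. The Padi genes, which encode enzymes that turn arginine into citrulline, lay under 118.0 kb of mH2A1 in mouse 1 and under 119.0 kb of mH2A2 in mouse 3.

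About as much of the covered length was shared with the other variant as with another mouse. Of the mH2A1 length, 48.5, 59.9 and 51.7% also lay in mH2A2 domains of the same mouse. Of the mH2A2 length, 54.8, 61.3 and 57.7% lay in mH2A1 domains. The mH2A1 share was lower in each mouse, by 4.55 ± 2.77 points (SD, n = 3), which restates the covered lengths, since the same shared length is divided by each. The Jaccard index, the shared length over the joint length, ranged from 0.347 to 0.434 between the variants in the same mouse. It ranged from 0.332 to 0.441 between mice for the same variant, and from 0.334 to 0.392 between variants of different mice. These ranges overlap. In every pair of lists the shared length itself was at least 3.6 times what the covered shares alone would give. Domains that met no domain of the other variant made up 48.6, 43.0 and 42.6% of the mH2A1 lists and 34.8, 26.2 and 37.1% of the mH2A2 lists.

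On a coarser scale the variants resembled each other more, and the mH2A2 list of mouse 1 stood apart from its group. Across 100 kb windows the Pearson correlation of the covered share was 0.77, 0.89 and 0.78 between mH2A1 and mH2A2 of mice 1, 2 and 3. Between mice it was 0.91 to 0.93 for mH2A1. For mH2A2 it was 0.91 between mice 2 and 3 but 0.81 and 0.79 between mouse 1 and these. Windows share base composition, gene density and, within a mouse, the input library, so these correlations are descriptions only.

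Most of the genome lay in no domain, and little of it belonged to 1 variant in all mice. Of the genome, 68.2% was in no domain of either variant in any mouse, and 2.78%, or 73.6 Mb, lay in both variants in all 3 mice. Sequence in mH2A1 domains of all 3 mice and in no mH2A2 domain came to 13.2 Mb, or 0.497%. The reverse, in mH2A2 domains only, came to 8.10 Mb, or 0.306%. The 24229 shared stretches had a median length of 2.2 kb, against 1.0 kb for the 9991 mH2A1-only stretches and 0.8 kb for the 6307 mH2A2-only stretches.

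The sequence of these 3 sets differed most in its genes. Gene bodies made up 24.5% of the mH2A1-only set, 65.8% of the mH2A2-only set and 41.1% of the shared set, against 39.0% of the genome. Of the gene-body sequence in the mH2A1-only set, 55.7% belonged to weakly expressed genes and 11.5% to strongly expressed ones. In the mH2A2-only set these shares were 9.92% and 59.3%, and in the shared set 49.2% and 15.4%. Weak and strong are the lowest and highest of 3 equal classes of genes with RNA counts in untrained CA1, up to 4.40 CPM and from 35.8 CPM. The genome itself had 20.5% weak and 44.7% strong, so that the mH2A1-only and the shared sets were alike in this respect and the mH2A2-only set was on the other side of the genome. All 3 sets were richer in GC than the genome, at 46.9% for mH2A1 only, 47.9% for mH2A2 only and 50.5% for both, against 41.7%. These sets were chosen by the 6 lists themselves, and no test was made on them.

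The longest stretch held by 1 variant in all 3 mice lay over a single gene for each variant. The longest mH2A1-only stretch, 19.2 kb at chr9:56870001-56889200 (mm10), lay in Cspg4, which encodes the NG2 proteoglycan of oligodendrocyte precursors and pericytes. Covered shares of the Cspg4 body were 69.7, 95.4 and 100% for mH2A1, and 0, 34.3 and 28.6% for mH2A2. The next 4 mH2A1-only stretches, of 11.0 to 13.4 kb, held no protein-coding gene. The longest mH2A2-only stretch, 17.2 kb at chr12:112650201-112667400, lay in Akt1, a kinase of growth factor signalling. The Akt1 body was covered over 0, 35.9 and 0% by mH2A1, and over 100% by mH2A2 in all 3 mice. The next mH2A2-only stretch, of 16.2 kb, lay over Capzb, an actin capping protein, and Pqlc2, a lysosomal transporter. Those of 10.2 to 10.4 kb lay in Gabbr2, a subunit of the GABA-B receptor, Shank2, a scaffold of excitatory synapses, Txnrd2, a mitochondrial thioredoxin reductase, and Tecpr1, an autophagy protein. The longest shared stretch, 83.2 kb, was the Ugt1a cluster, where the input was high as well, and among stretches with a gene those over Smok2a and Smok2b, of 63.2 kb, and over Pax7, of 50.8 kb, came next.

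Few domains of either variant were listed on the X and Y chromosomes. The X chromosome, 6.18% of the genome, was covered over 0.197, 0.232 and 0.230% by mH2A1, and over 0.282, 0.243 and 0.212% by mH2A2. The autosomes were covered over 15.4, 17.3 and 17.0% by mH2A1, and over 13.6, 17.0 and 15.2% by mH2A2. The X therefore held 104, 127 and 95 mH2A1 domains and 119, 110 and 92 mH2A2 domains, and the Y 25 to 30 mH2A1 and 30 to 49 mH2A2 domains. On the log2 scale the X stood at −6.29, −6.23 and −6.21 relative to the autosomes for mH2A1, and at −5.59, −6.12 and −6.17 for mH2A2. The variants differed by −0.28 ± 0.36 (SD, n = 3), of which mouse 1 gave −0.70 and the others −0.10 and −0.04. Input reads per kb in X domains were 0.964, 1.00 and 1.14 times those in autosomal domains for mH2A1, and 0.908, 1.06 and 1.18 times for mH2A2. The few X domains that were listed thus had an input close to that of autosomal domains, although males have 1 X. Their median log2 ratio was higher, at 0.83, 0.80 and 0.64 for mH2A1, and 0.94, 0.73 and 0.57 for mH2A2. In autosomal domains it was 0.46, 0.50 and 0.40, and 0.35, 0.35 and 0.33. The listed X domains therefore describe strong sites and not the X as a whole. How readily domains are called on a chromosome present in 1 copy was not tested.

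Among the 19 autosomes the variants divided the domains differently, and 15 gave the same sign in all 3 mice. Relative to the whole list, mH2A1 was higher on 9 of them and mH2A2 on 6. Chromosomes 3 and 1 leaned most to mH2A1, with a log2 difference of the relative covered share of 0.40 ± 0.21 and 0.32 ± 0.10 (SD, n = 3). Chromosome 3 was covered over 10.2, 10.2 and 10.5% by mH2A1, and over 7.74, 7.84 and 6.07% by mH2A2. Chromosomes 7 and 19 leaned most to mH2A2, with −0.36 ± 0.05 and −0.33 ± 0.18 (SD, n = 3). Chromosome 7, with 14.3 protein-coding genes per Mb, was covered over 21.5, 24.4 and 23.8% by mH2A1, and over 25.2, 29.4 and 27.3% by mH2A2. Across the 19 autosomes the difference had a Pearson correlation of −0.66 with GC content and of −0.58 with gene density, a description over chromosomes that share the same 6 libraries.

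**Figure D2:**
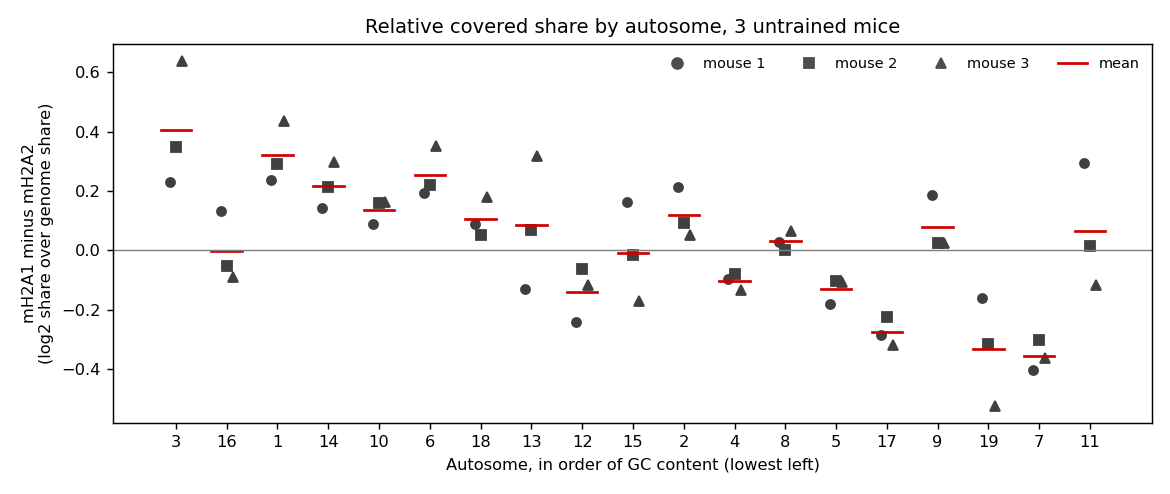
The log2 difference (mH2A1 minus mH2A2) of the relative covered share is plotted for each of the 19 autosomes, with a point per mouse and a bar at the mean. Chromosomes 3 (mean 0.40) and 1 (0.32) lie highest and chromosomes 19 (−0.33) and 7 (−0.36) lowest, and 15 of 19 show 1 sign in all mice.

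Relative to the genome, promoters and gene bodies took more of the mH2A2 domains, and gene-poor regions more of the mH2A1 domains, in each untrained mouse. Promoters were covered over 18.9, 24.0 and 21.8% by mH2A1, and over 18.5, 27.7 and 23.8% by mH2A2. Both variants were thus denser at promoters than over the genome, by a log2 ratio of 0.44, 0.61 and 0.50 for mH2A1, and of 0.58, 0.85 and 0.79 for mH2A2. The difference was −0.22 ± 0.08 (SD, n = 3). Gene bodies outside promoters were covered over 12.5, 15.7 and 13.6% by mH2A1, and over 12.8, 18.4 and 17.0% by mH2A2. Relative to the genome this was −0.16, −0.00 and −0.18 on the log2 scale for mH2A1, and 0.06, 0.26 and 0.30 for mH2A2. Gene bodies were therefore at or below the genome's level for mH2A1 and above it for mH2A2, with a difference of −0.32 ± 0.14 (SD, n = 3). In the trained mouse with nearly equal ChIP depth the differences were −0.12 for promoters, −0.10 for gene bodies and −0.12 for gene-poor regions. The last had the opposite sign to the untrained mice. In the other trained mouse they were −0.55, −0.59 and 0.89. The part of depth in these differences was not tested.

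That order of gene bodies did not hold for the strongest domains. With only domains of at least 1.5-fold ChIP over input, gene bodies stood at −0.75, −0.35 and −0.86 for mH2A1, and at −0.97, −0.68 and −0.62 for mH2A2. Mice 1 and 2 then had the higher value for mH2A1 and mouse 3 for mH2A2, and the mean difference was 0.10, with the opposite sign.

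Within genes, exons were covered more than introns by both variants. Exons were covered over 20.1, 27.7 and 21.6% by mH2A1, and over 22.2, 33.5 and 30.3% by mH2A2. Introns were covered over 11.3, 13.9 and 12.4% by mH2A1, and over 11.5, 16.3 and 15.0% by mH2A2. Of the whole covered length, 34.9, 38.9 and 34.3% lay in gene bodies for mH2A1, and 40.5, 46.8 and 47.9% for mH2A2, with no overlap between the variants.

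Outside genes the order was the reverse. Intergenic sequence within 100 kb of a gene was covered over 15.7, 16.6 and 17.7% by mH2A1, and over 12.6, 14.0 and 12.4% by mH2A2, and the variants did not overlap. Gene-poor sequence, more than 100 kb from any annotated gene and 6.00% of the genome, was covered over 6.34, 5.74 and 5.90% by mH2A1, and over 4.85, 4.01 and 3.59% by mH2A2. Both variants were sparse there, at −1.14, −1.45 and −1.39 relative to the genome for mH2A1, and at −1.35, −1.94 and −1.94 for mH2A2. The difference was 0.42 ± 0.18 (SD, n = 3).

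**Figure D3:**
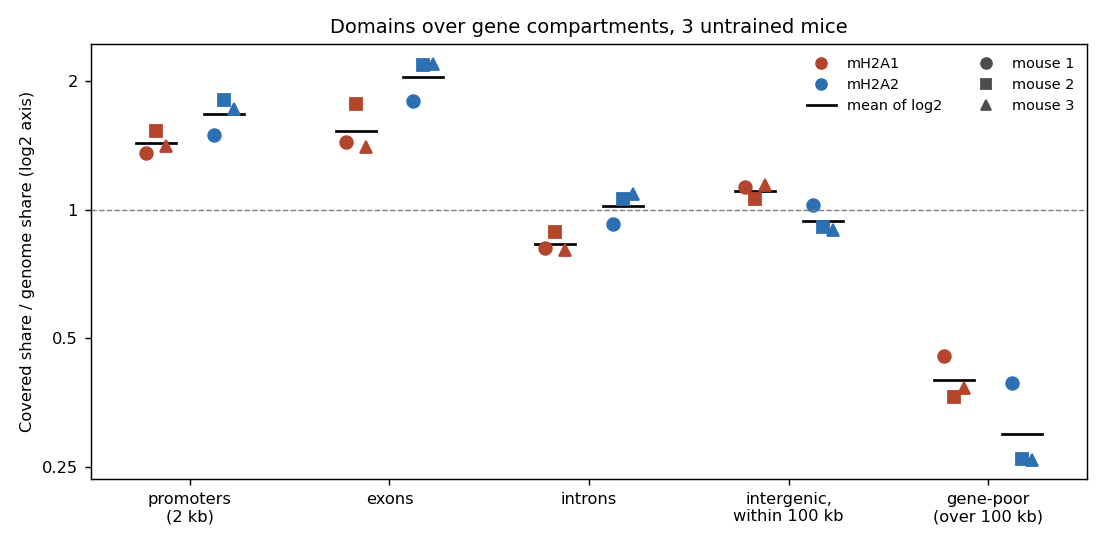
The covered share of each compartment over that of the genome is plotted on a log2 axis for the 6 lists, mH2A1 left of mH2A2, with a point per mouse and a bar at the mean of the log2 values. Promoters and exons lie above 1 for both variants, intergenic sequence within 100 kb of a gene lies above 1 for mH2A1 and near 1 for mH2A2, and gene-poor regions lie lowest, lower for mH2A2.

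The variants also differed in how their domains were divided between weakly and strongly expressed genes. Of the genes, 5530 were in the weak, 5531 in the middle and 5531 in the strong class, and 3515 had no counts in the 3 RNA libraries of 48769140 to 58655523 counts, which came from other untrained mice. Promoters of weak genes were covered over 33.5, 38.8 and 38.1% by mH2A1, and over 27.6, 40.3 and 35.0% by mH2A2. Promoters of strong genes were covered over 9.06, 14.8 and 10.6% by mH2A1, and over 11.4, 21.6 and 18.2% by mH2A2. Both variants were thus denser at weak genes, and the step from strong to weak genes was larger for mH2A1. That step was 24.5, 24.0 and 27.5 points for mH2A1, and 16.2, 18.7 and 16.9 points for mH2A2, a difference of 8.07 ± 2.62 (SD, n = 3).

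Gene bodies showed the same contrast, mainly through the strongly expressed genes. Bodies of strong genes were covered over 10.1, 19.9 and 11.1% by mH2A1, and over 17.4, 30.3 and 27.7% by mH2A2, a difference of −11.5 ± 4.76 points (SD, n = 3). Bodies of weak genes were covered over 36.0, 41.8 and 39.9% by mH2A1, and over 29.3, 42.6 and 37.7% by mH2A2, so that the variants overlapped there. Genes with no counts were covered less than weak genes, over 23.2, 24.7 and 25.2% by mH2A1, and over 24.1, 24.9 and 21.7% by mH2A2. CpG-rich promoters, those of 5969 genes with an observed over expected CpG ratio of at least 0.4 in the 2 kb promoter, were covered over 11.4, 16.4 and 12.8% by mH2A1, and over 12.3, 22.6 and 18.1% by mH2A2.

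Around the start of strongly expressed genes both variants had a trough, and it was deeper for mH2A1 inside the gene. At the start itself 8.99, 15.6 and 9.55% of these genes lay in a mH2A1 domain, and 12.2, 23.3 and 18.7% in a mH2A2 domain. At 10 kb before the start the shares were 18.2, 26.6 and 22.9% for mH2A1, and 15.7, 27.9 and 25.9% for mH2A2, so that the variants were alike upstream. At 10 kb into the direction of transcription they were 10.4, 19.5 and 12.3% for mH2A1, and 17.3, 28.8 and 26.5% for mH2A2. Coverage by mH2A2 thus came back to its upstream level within 10 kb of the start, while that by mH2A1 stayed below it. Weakly expressed genes had a peak at the start instead, with 39.0, 45.2 and 42.2% for mH2A1, and 31.3, 45.2 and 38.9% for mH2A2.

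**Figure D4:**
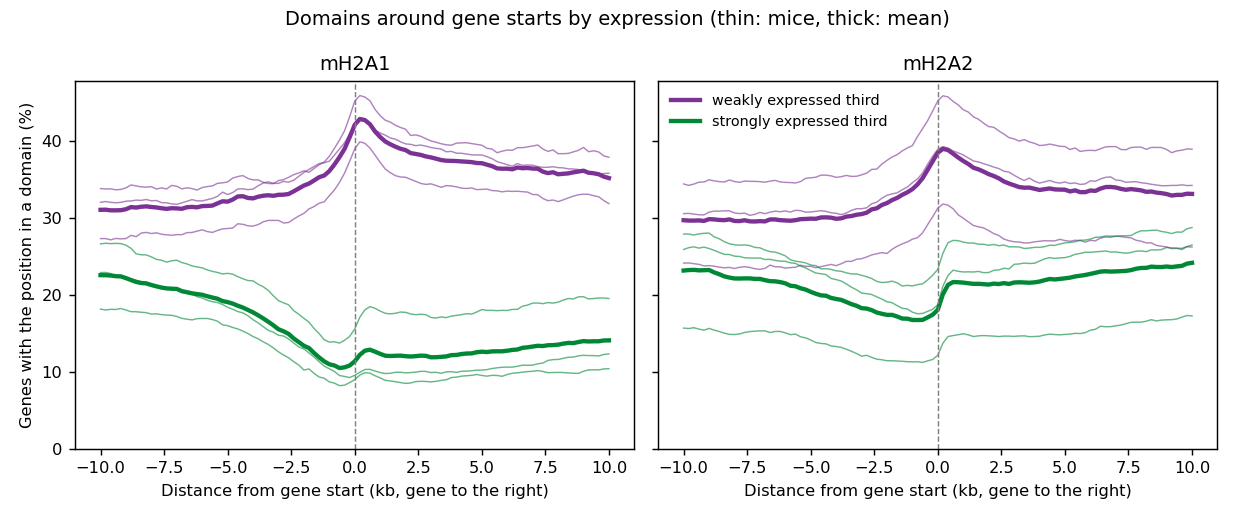
The share of genes whose position lies in a domain is plotted against the distance from the gene start in kb, in the direction of transcription, for weakly and strongly expressed genes. Thin lines are the 3 mice and thick lines their mean. Weak genes peak at the start (mean 42.1% for mH2A1 and 38.5% for mH2A2), strong genes have a trough (11.4% and 18.1%), and the mH2A1 line of strong genes stays low downstream, at a mean of 14.1% at 10 kb against 24.2% for mH2A2.

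Each of the 10 summary differences (domain number, covered share, length, ChIP over input, shared length, X, promoters, gene bodies, gene-poor regions, and weak minus strong promoters) was tested by an exact two-sided sign-flip permutation test over the 3 mice. For 9 of them, all but length, the mice gave 1 sign and the exact p was 0.25, the smallest that 3 pairs can give, or 0.28 after Benjamini-Hochberg adjustment over the 10. For length the exact p was 0.5. The design cannot reach 0.05, so these are values and signs and not calls. With the lists of the 2 trained mice added, the signs held in 5 of 5 mice for 7 of the 10, with an exact permutation p of 0.062, again the smallest possible. The shared length is 1 of the 7 but restates the covered share. The exceptions were ChIP over input and gene-poor regions, at 0.125, and length, at 0.375.

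Single regions were then tested in 19910 windows of 100 kb with at least 1% mean coverage, by limma with the mouse as a block and Benjamini-Hochberg adjustment over all windows. Of these, 501 or 2.52% had an adjusted p under 0.05. mH2A1 covered more of 287 (1.44%) and mH2A2 more of 214 (1.07%), and the sign was the same in all 3 mice in each of the 501. They formed 400 runs of adjacent windows, the longest of 6. None lay on the X or Y, which were covered over at most 0.282 and 0.157% in any list. The minimum of 1% therefore kept most of their windows out of the test. When both lists of a mouse were cut to the same covered length, 483 windows passed, 158 with more mH2A1 and 325 with more mH2A2, so that the balance of directions was the reverse. The calls rest on the paired design and all 3 mice: 0 windows passed when any 1 mouse was left out and 0 without the mouse as a block, with 2842 to 3521 and 3825 at an unadjusted p under 0.05. On the relative scale 0 passed with limma (0%), against 3858 at an unadjusted p under 0.05, and no other tool was run.

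The called windows of the 2 directions differed in their genes. Windows with more mH2A1 held 0.436 gene starts on average, windows with more mH2A2 held 1.98, and all tested windows 0.984. A start of a strongly expressed gene was present in 8.71% of the mH2A1 windows and in 47.7% of the mH2A2 windows, against 19.2% of all windows. Gene bodies took up 21.6% of the mH2A1 windows and 86.1% of the mH2A2 windows, against 38.6%. The median GC content was 45.3% and 48.4%, against 42.3%, so that both kinds were above the genome. In the 2 trained mice, whose lists played no part in the calls, mH2A1 was the higher one in 277 and 284 of the 287 windows. Of the 214 windows with more mH2A2, mH2A1 was the lower one in 207 and 158, while over all tested windows mH2A1 was higher in 52.7 and 54.2%.

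The window with the largest difference towards mH2A1 held no protein-coding gene start or body. It lies on chromosome 17 from 84000001 to 84100000 and was covered over 80.8, 87.0 and 87.4% by mH2A1, and over 2.80, 26.8 and 32.2% by mH2A2. The difference was 64.5 points (standard error 8.04, limma adjusted p = 0.0126). Of the other 4 largest, those on chromosome 6 from 100100001 and from 100300001 and on chromosome 1 from 190200001 were also without a gene, with differences of 60.1, 55.8 and 54.8 points (limma adjusted p = 0.0126, 0.0147 and 0.0167). The window on chromosome 1 from 88500001, with a difference of 56.9 points, held Glrp1, a weakly expressed gene.

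Of the 5 windows with the largest difference towards mH2A2, 4 lay over strongly expressed genes. On chromosome 7 from 29300001 to 29400000, over Dpf1, a neural subunit of the BAF remodelling complex, and Sipa1l3, a regulator of the Rap GTPase, coverage was 2.20, 41.8 and 10.2% for mH2A1, and 82.8, 86.4 and 84.8% for mH2A2. The difference was −66.6 points (standard error 8.70, limma adjusted p = 0.0126). On chromosome 4 from 46700001 to 46800000, inside Gabbr2, coverage was 5.60, 2.60 and 3.6% for mH2A1, and 59.0, 45.2 and 75.8% for mH2A2 (limma adjusted p = 0.0126). Camta1, a calmodulin-regulated transcription factor of neurons, held the window on chromosome 4 from 151700001, with −54.1 points (limma adjusted p = 0.0167). The window on chromosome 15 from 74400001 had no protein-coding gene, with −54.5 points (limma adjusted p = 0.0186).

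Single gene bodies did not pass the test, since 0 of 13441 bodies of at least 5 kb (0%) had a limma adjusted p under 0.05 and the smallest was 0.416. At an unadjusted p under 0.05 there were 1530, of which 346 had more mH2A1 and 1184 more mH2A2. mH2A1 was higher in all 3 mice in 1429 genes (10.6%) and mH2A2 in 2983 (22.2%). A gap of more than 50 points in each mouse was found in 7 genes (0.0521%) for mH2A1 and in 36 (0.268%) for mH2A2. At a gap of more than 30 points there were 58 genes with more mH2A1, of which 84.5% were weakly expressed or without counts, and 239 with more mH2A2, of which 6.28% were, against 39.6% of all genes tested. The median RNA level was 0.160 CPM in the first group and 42.8 CPM in the second, against 9.55 CPM over all.

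The genes with the largest mean difference towards mH2A1 were weakly expressed or without counts in 8 of 10 cases, Tst and Cspg4 being the exceptions at 21.0 and 25.0 CPM. Upk3a, a uroplakin of the bladder lining, was covered over 57.1, 100 and 89.3% by mH2A1 and over 0% by mH2A2 in all 3 mice. Tdgf1, the embryonic growth factor Cripto, had 66.7, 84.8 and 87.9% for mH2A1 and 0% for mH2A2 in each mouse. Bmp10, a growth factor of the heart, had 73.3, 57.8 and 100% for mH2A1 and 0% for mH2A2 in each mouse. Groups of lists did not overlap in these genes. In the 2 trained mice mH2A1 covered 0 and 100% of Upk3a, 0 and 3.03% of Tdgf1, and 4.44 and 100% of Bmp10. Coverage of these 3 genes by mH2A2 was 0% in both trained mice. Cpa1, whose upstream sequence is printed above, had 100% for mH2A1 in each mouse and 0, 96.8 and 0% for mH2A2, so that mouse 2 held both variants over its body. The remaining named genes were Tst, a sulfur transferase of mitochondria, Gimap5, a GTPase of lymphocytes, Rdh8, a retinol dehydrogenase of photoreceptors, Rhbg, an ammonium transporter of the kidney, Trib3, a pseudokinase of the stress response, and Cspg4, with mean differences of 67.4 to 76.8 points.

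The genes with the largest difference towards mH2A2 were mostly expressed in CA1. Tmem191c, a membrane protein gene at 60.5 CPM, was covered over 0% by mH2A1 and over 100% by mH2A2 in all 3 mice. Nat8l, which makes N-acetylaspartate in neurons and was at 563 CPM, had 0, 17.6 and 0% for mH2A1, and 90.2, 100 and 100% for mH2A2. Ddn, dendrin of the postsynapse, at 2017 CPM among the most abundant mRNAs, had 0, 60 and 0% for mH2A1, and 100% for mH2A2 in each mouse. In Ddn and Akt1 alike mouse 2 was the one with mH2A1 as well. Fam131b, also printed above, had 14.6, 0 and 31.2% for mH2A1, and 100, 83.3 and 100% for mH2A2. The others were Iffo1, Fam69b, Jrk, Gipc1, an adaptor of receptor trafficking, and Ptcra, the pre-T cell receptor alpha chain and at 0.132 CPM the exception in expression, with mean differences of −79.7 to −88.4 points. With only domains of at least 1.5-fold ChIP over input the mean difference changed sign for Tst (−6.06 points), Ddn (20.0), Gipc1 (2.73) and Fam131b (4.86). The trained mice held these differences only in part. There mH2A2 covered 86.5 and 0% of Tmem191c, 100 and 0% of Nat8l, and 100 and 0% of Ddn. For Fam131b it covered 0 and 35.4%, and for Gipc1 0% in both. Coverage of these 5 genes by mH2A1 was 0% in both trained mice.

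Gene lists were compared by their mean body coverage. Over all 21938 protein-coding genes this was 23.8 ± 3.59% for mH2A1 and 28.2 ± 5.53% for mH2A2 (SD, n = 3). Of these genes, 1500 (6.84%) were higher for mH2A1 in all 3 mice and 3188 (14.5%) for mH2A2. The median difference was 0 points. The 39 Hox genes, silent in CA1, were the most covered list, at 81.1 ± 1.67% for mH2A1 and 64.6 ± 7.19% for mH2A2. Of them 11 were higher for mH2A1 in all 3 mice and 0 for mH2A2, with a median difference of 18.5 points. Hoxa2, a patterning gene of the hindbrain, had 92.3, 84.6 and 84.6% for mH2A1, and 0, 84.6 and 0% for mH2A2. Hoxa7 had 100, 100 and 78.9% for mH2A1, and 0, 52.6 and 78.9% for mH2A2. Hoxa5 had 73.3, 100 and 100% for mH2A1, and 13.3, 60 and 66.7% for mH2A2. The whole list was thus covered by both variants and more fully by mH2A1.

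Other lists of silent tissue-specific genes followed the Hox genes less closely. The 60 developmental transcription factors were at 69.2 ± 3.13% for mH2A1 and 60.6 ± 5.70% for mH2A2, with 12 higher for mH2A1, 1 for mH2A2 and a median difference of 4.55 points. Msx2, a homeobox factor of craniofacial bone, had 50, 78.1 and 59.4% for mH2A1, and 18.8, 34.4 and 0% for mH2A2. The 110 keratin genes were at 56.3 ± 2.99% for mH2A1 and 47.0 ± 4.08% for mH2A2, with 6 higher and 1 lower. The 6 are 5.45% of the list, against 6.84% of all protein-coding genes, and the median difference was 1.48 points. Krt76, a keratin of the palate, had 88.6, 79.5 and 100% for mH2A1, and 27.3, 0 and 90.9% for mH2A2. Not every silent list was covered, since the 1092 olfactory receptors were at 9.28 ± 0.348% for mH2A1 and 10.6 ± 2.34% for mH2A2, and the 328 vomeronasal receptors at 8.39 ± 0.904% and 12.0 ± 2.48%. mH2A1 was higher in all 3 mice in 18 (1.65%) of the olfactory and 6 (1.83%) of the vomeronasal receptors, against 6.84% of all protein-coding genes. mH2A2 was higher in 36 (3.30%) and 37 (11.3%), against 14.5% of all genes. The bodies of 554 olfactory and 113 vomeronasal receptors lay in no domain of any of the 6 lists.

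Lists of genes used in every cell had a higher mean for mH2A2, with few genes of 1 sign in all mice. In all 3 mice mH2A2 was higher in 9.09% of the ribosomal protein genes and 11.8% of those of oxidative phosphorylation, against 14.5% of all genes. The 77 ribosomal protein genes were at 12.4 ± 7.60% for mH2A1 and 29.3 ± 8.42% for mH2A2, with 0 higher for mH2A1 in all mice, 7 for mH2A2 and a median difference of −13.3 points. Rpl10a, of the large ribosomal subunit, had 21.4, 78.6 and 0% for mH2A1, and 92.9, 100 and 78.6% for mH2A2. The 93 genes of oxidative phosphorylation were at 13.6 ± 5.19% for mH2A1 and 23.2 ± 4.39% for mH2A2, with 0 and 11 genes and a median difference of −0.40 points. Ndufb7, a subunit of complex I, had 0, 73.1 and 0% for mH2A1, and 100, 96.2 and 100% for mH2A2. With only domains of at least 1.5-fold ChIP over input the mean difference at Rpl10a and at Ndufb7 was 0 points. In both lists the mH2A1 value of mouse 2 was the highest of the 3, at 21.0% and 19.5%. These genes are short, with a median of 3.29 kb for the ribosomal proteins, against 17.4 kb over all genes.

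Genes of synapses and ion channels had mean body differences close to that of all protein-coding genes, −4.38 points. The difference was −5.23 points for glutamate and GABA receptors and −4.83 for potassium channels. In all 3 mice mH2A2 was higher in 30.6% of the receptor and 27.1% of the potassium channel genes. This compares with 14.5% of all genes and 22.2% of the tested genes of at least 5 kb. The 36 glutamate and GABA receptor genes were at 16.7 ± 2.91% for mH2A1 and 21.9 ± 3.59% for mH2A2, with 0 higher and 11 lower in all mice and a median difference of −0.60 points. Their promoters were covered over 20.3, 20.8 and 16.1% by mH2A1, and over 30.3, 35.6 and 34.4% by mH2A2, with no overlap of the variants. Grik5, a kainate receptor subunit, had 16.3, 54.0 and 0% of its body in mH2A1 and 84.4, 96.5 and 83.4% in mH2A2. Gria1, the AMPA receptor subunit GluA1, had 7.27, 3.26 and 2.32% for mH2A1, and 32.8, 19.8 and 25.9% for mH2A2, whereas Gria4, another AMPA subunit, was nearly free of both. Grin2c, an NMDA receptor subunit found in cerebellum and astrocytes, went the other way, with 66.3, 100 and 100% for mH2A1, and 0, 100 and 68.5% for mH2A2. The 59 potassium channel genes were at 37.3 ± 5.19% for mH2A1 and 42.1 ± 7.24% for mH2A2, with 6 higher and 16 lower. Kcnj10, the inward rectifier of astrocytes, had 19.4, 92.1 and 60% for mH2A1 and 0% for mH2A2 in all mice.

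The 30 long neuronal genes, among them Auts2 and Rbfox1, were almost free of either variant. Their mean body coverage was 0.843 ± 0.147% for mH2A1 and 1.68 ± 0.115% for mH2A2, with 1 higher and 11 lower in all mice. Rbfox1, a splicing factor of neurons, had 0.839, 0.275 and 0% for mH2A1, and 2.87, 1.81 and 6.33% for mH2A2.

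Marker lists of the cell types in CA1 differed in their means, with few genes of 1 sign in all mice. The 9 annotated markers of CA1 pyramidal neurons were at 39.5 ± 8.10% for mH2A1 and 51.6 ± 1.64% for mH2A2, lower for mH2A1 in 3 of 3 mice. The 8 astrocyte markers were at 39.1 ± 4.03% for mH2A1 and 22.9 ± 14.7% for mH2A2, and the 9 oligodendrocyte markers at 46.6 ± 4.19% and 32.8 ± 3.07%. The 6 endothelial markers were at 50.8 ± 3.83% for mH2A1 and 38.2 ± 4.01% for mH2A2, and these 3 lists were higher for mH2A1 in 3 of 3 mice. Single genes with 1 sign in all mice were 2 of 9 lower for pyramidal neurons, and 1 of 8, 3 of 9 and 2 of 6 higher for astrocytes, oligodendrocytes and endothelium. Over all protein-coding genes 14.5% were lower and 6.84% higher for mH2A1 in all 3 mice. The median body difference of the oligodendrocyte markers was 0 points. Promoters were higher for mH2A1 in 1 of 3 mice for astrocyte markers and in 3 of 3 for oligodendrocyte markers. The promoters of the endothelial markers had a mean difference of −6.67 points, the opposite sign. Lists of tissues not in the sample had mean body differences of 7.14 points for liver and 7.22 for muscle genes. These were smaller than in the lists above, and mH2A1 was higher in 1 of 3 mice for liver and in 2 of 3 for muscle. The 10 markers of inhibitory neurons, at 49.7 ± 6.04% and 45.7 ± 13.8%, and the 8 of microglia, at 63.9 ± 1.16% and 58.8 ± 6.55%, were higher in 2 of 3 mice. All these mRNAs were present in the CA1 RNA, so a mean over cells stands behind each value. The lists are short, no test was run on them, and which cells carried the domains was not tested.

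Immediate early genes, which neuronal activity induces, showed no common pattern. Arc, an immediate early gene of synaptic plasticity, was covered over 66.7, 77.8 and 100% by mH2A1, and over 100% by mH2A2 in each mouse. Its mean difference, −18.5 points, came to −74.1 points at matched covered length and to 0 with domains of at least 1.5-fold. Npas4, an activity-induced transcription factor, had 0, 80.6 and 0% for mH2A1, and 100% for mH2A2 in each mouse. Fos had mH2A1 only in mouse 2, over 72.2%, and no mH2A2. The 18 immediate early genes were at 21.5 ± 12.4% for mH2A1 and 26.3 ± 4.36% for mH2A2, with 0 higher and 1 lower in all 3 mice, and the mH2A1 mean of mouse 2, 34.5%, was the highest. Fabp1, a fatty acid carrier of the liver, was covered almost fully by both, over 96.3, 88.9 and 81.5% by mH2A1, and over 100, 100 and 74.1% by mH2A2.

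The genes of the 2 histones carried domains of both. The body of H2afy, which encodes mH2A1, was covered over 20.7, 40.8 and 31.2% by mH2A1, and over 21.7, 56.7 and 47.5% by mH2A2. The body of H2afy2, which encodes mH2A2, was covered over 27.2, 50.4 and 31.6% by mH2A1, and over 47.8, 61.0 and 32.0% by mH2A2. mH2A2 was the higher one in every mouse at both genes, by 0.44 points at the least, and neither passed the test (limma adjusted p = 0.558 for H2afy and 0.590 for H2afy2). With only domains of at least 1.5-fold ChIP over input both differences had the opposite sign, 2.76 and 8.48 points.

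Imprinted and interferon genes held single cases in either direction. Igf2r, the maternally expressed receptor that clears insulin-like growth factor 2, was covered over 31.1, 26.1 and 25.6% by mH2A1, and over 69.3, 67.1 and 59.0% by mH2A2. The groups did not overlap, and the mean difference was −37.5 ± 3.82 points (SD, n = 3, limma adjusted p = 0.416). Over the 19 annotated imprinted genes the means were 37.8 ± 3.93% for mH2A1 and 41.5 ± 7.64% for mH2A2, with 5 higher and 2 lower. Oasl2, an interferon-induced gene of the oligoadenylate synthetase family, had 42.3, 70.5 and 66.7% for mH2A1, and 8.97, 11.5 and 8.97% for mH2A2, with a mean difference of −2.99 points, the opposite sign, for domains of at least 1.5-fold. Isg15, an interferon-induced ubiquitin-like protein, had 0, 62.5 and 0% for mH2A1, and 75, 100 and 100% for mH2A2, and a difference of 0 points with domains of at least 1.5-fold. The 19 interferon genes as a list were at 37.0 ± 3.32% for mH2A1 and 32.8 ± 5.47% for mH2A2, with 3 genes in each direction.

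**Figure D5:**
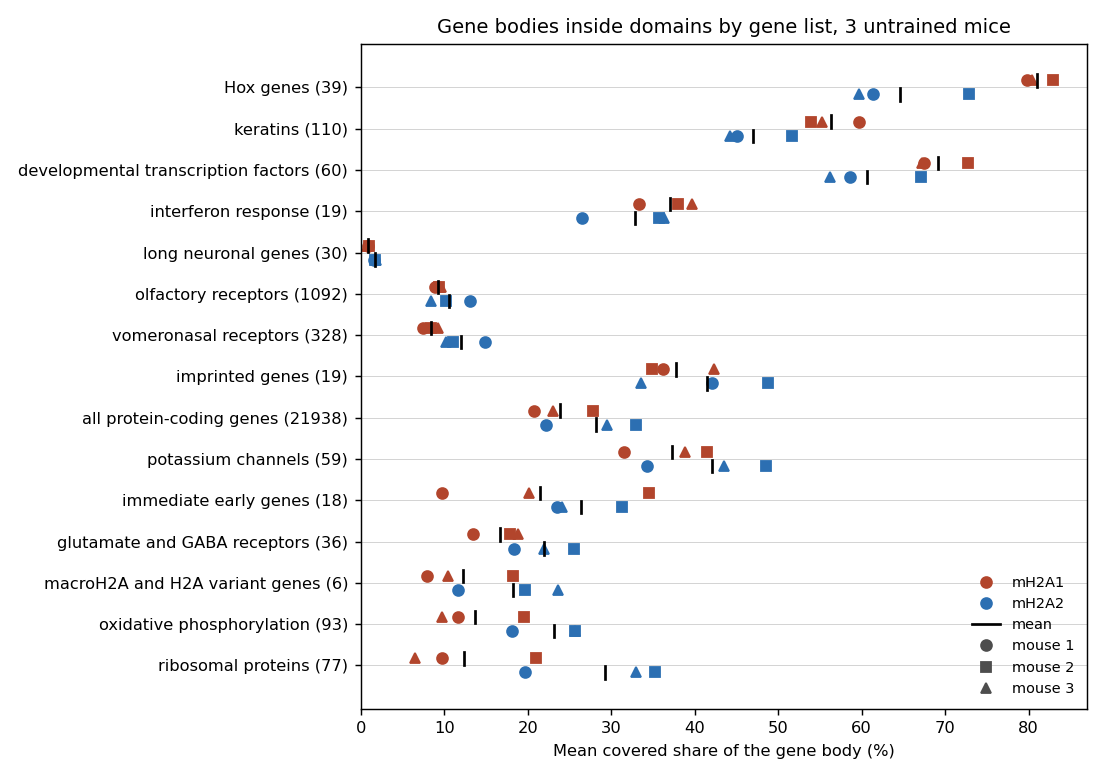
The mean share of the gene body in domains is plotted for each gene list, with a point per mouse, mH2A1 above mH2A2, and a bar at the mean. Hox genes lie highest, at 81.1% for mH2A1 and 64.6% for mH2A2, ribosomal protein genes lie at 12.4% and 29.3%, and long neuronal genes lie near 0 for both variants.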

How the data were processed

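Area CA1 chromatin was crosslinked, digested with micrococcal nuclease and precipitated for mH2A1 and mH2A2, with 1 input per mouse. The authors trimmed the reads, aligned them with Bowtie2 to mm10 and called broad domains against the input with epic2 at a false discovery rate under 0.05, while the submitters' processing notes name SICER. Each deposited list gives ChIP and input counts, a p-value with its false discovery rate, and a log2 ratio of ChIP over input scaled by depth. Gene counts of 3 other untrained mice, also deposited by the authors, gave CPM. Library totals of the ChIP and input reads were not used here. ChIP reads inside domains came to 19.5 to 22.3 M for mH2A1 and 23.7 to 26.9 M for mH2A2, so that intervals and depth limits were not computed.

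Domains were laid on 200 bp bins of GRCm38.p6, whose chromosome names and lengths fit the lists. Differences are mH2A1 minus mH2A2 within a mouse. Summary values were tested by exact sign-flip permutation over mice, and windows and gene bodies with limma 3.58.1 (R 4.3.3) with the mouse as a block, Benjamini-Hochberg adjusted and tested on simulated data. The relative scale is log2 of the covered share over that of the list, with a pseudocount of 0.1. Both lists of a number come from the same mouse. The correlation of their deviations from the variants' means was 0.36, 0.38 and −0.02 for mice 1, 2 and 3. Python 3.11.15, NumPy 2.4.6, pandas 2.3.3 and matplotlib 3.10.9 were used. Named genes were up to 4 per list with the largest difference, the 10 largest mean differences in each direction with 1 sign in all mice among genes of at least 5 kb, and H2afy, H2afy2, Arc, Fos, Gria4 and Fabp1. Windows were named likewise, 5 each way, and genes with printed sequences or over the longest domains and stretches were added after their values were seen. Some items that this rule names are not reported here. The members and lists were chosen with earlier results of these data known. Leave-one-out fits, no block, stricter domains, other windows and scalings were tried.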

Additional observations from a re-analysis of the deposited data

How the results depend on the processing

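With 3 mice no exact test of a summary value can pass 0.05, and the depth of the ChIP libraries moved with the variant. Over 81 alternatives for the 10 summary differences, 79 kept their direction. Part of this count was fixed in advance. Dropping the block leaves the mean difference as it is, and leaving out 1 mouse cannot change a sign that all 3 mice share. The share of length held in common came to 0.000464 points at matched covered length, where both shares are equal by construction. Gene bodies against the genome came to 0.10 (log2) for domains of at least 1.5-fold, and the cause was not tested. Leaving out 1 mouse gave differences of 13700 to 29402 domains, 0.967 to 1.60 points of covered share, −1200 to −200 bp of median length, 0.09 to 0.13 in log2 ChIP over input and −6.15 to −3.71 points of shared length. On the log2 scale it gave −0.40 to −0.07 for the X, −0.26 to −0.19 for promoters, −0.37 to −0.24 for gene bodies and 0.35 to 0.52 for gene-poor regions, and for weak minus strong promoters 6.81 to 9.42 points.

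Without the replicate block, that is with unpaired lists, 0 windows passed with limma (3825 at an unadjusted p under 0.05), against 501 in the paired fit, and the exact permutation p of the 10 summary differences was 0.1 to 0.4. Window calls numbered 0 when any 1 mouse was left out (lowest 0, highest 0), 0 with domains of at least 1.5-fold (1260 at an unadjusted p under 0.05), 0 with no minimum coverage (3501), 322 with a false discovery rate under 0.001, 3160 with the trained mice added and 756 in 1 Mb windows. On the relative scale 871 passed with the trained mice added, 572 in 1 Mb windows and 52 with a pseudocount of 0.5, against 0 otherwise. Gene bodies gave 0 throughout with limma (55 to 3031 at an unadjusted p under 0.05), also on the relative scale, which was chosen after seeing the data (1251).

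For the named windows 57 of 86 alternatives missed the threshold in the same direction. For the named gene bodies 425 of 449 kept their direction or, where no model was fitted, stayed within the spread between mice. Part of this was again fixed in advance, since many of these genes were picked for 1 sign in all mice. Of the 15 that moved further, Rpl10a, Ndufb7, Isg15 and Arc came to 0 points with domains of at least 1.5-fold, and Arc to −40.7 with a false discovery rate under 0.001 and −74.1 at matched covered length. The sign changed for Fabp1 when 1 mouse was left out (−7.41 to 1.85 points, the positive value without mouse 2) and, with domains of at least 1.5-fold, for Fabp1 (32.1), Tst (−6.06), Ddn (20.0), Gipc1 (2.73), Fam131b (4.86), Oasl2 (−2.99), H2afy (2.76) and H2afy2 (8.48).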

Other observations

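Untrained mice of a separate cohort, collected at 1 h, had lists from different animals for each variant, so that no pairing was possible, and no test was made. By the study's methods the mH2A1 antibody came from another supplier than at 30 min, so that antibody and cohort cannot be told apart. The titles name mH2A1 for 2 of these lists, although their antibody label names mH2A2. The 2 lists titled mH2A1 held 80836 and 95469 domains over 24.4 and 21.4% of the genome, and the 3 mH2A2 lists held 83504, 66590 and 70890 domains over 16.8, 16.3 and 15.5%. Gene bodies against the genome stood at −0.65 and −0.61 (log2) in the lists titled mH2A1, and at −0.18, 0.36 and 0.31 in the mH2A2 lists. The gap between promoters of weakly and strongly expressed genes was 30.8 and 27.4 points in the lists titled mH2A1, and 19.6, 2.50 and 6.06 points in the mH2A2 lists.

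In the 2 trained mice of the 30 min cohort, gene-poor regions stood at −0.77 and −1.07 (log2) for mH2A1, and at −1.66 and −0.95 for mH2A2. Thus 1 of these mice, the one with nearly equal ChIP depth, went against the untrained ones. The markers of dentate granule neurons, a neighbouring cell type with a summed RNA level of 36.1 to 108 CPM, were covered over 52.9, 46.0 and 68.9% by mH2A1, and over 50.6, 22.3 and 21.1% by mH2A2 in untrained mice.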
